A study of Homo sapiens with 9 samples.

Results

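The regions described here are the BPTF peaks that the authors listed as displaced by hormone and that lie inside genes, away from gene starts. A peak was taken when it overlapped the span of a gene in the deposited H2A gene table by at least 1 bp and did not reach into the 5 kb on either side of any gene start in that table. This left 2216 of 5546 displaced peaks, or 40.0% (Wilson 95% interval 38.7 to 41.3%). A further 319 displaced peaks (5.75%) lay within 5 kb of a start and 3011 (54.3%) lay between genes. The members were thus chosen by the authors' displaced call, made on the BPTF libraries of 0 and 30 min, and by position, so the loss of BPTF at these places is the starting point here and is not tested.

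The study used T47D-MTVL, a luminal breast cancer line of human origin with an integrated reporter under the promoter of mouse mammary tumour virus. All cells were kept without serum and then either left untreated (0 min) or given 10 nM R5020, a synthetic progestin. Chromatin immunoprecipitation with sequencing (ChIP-seq) was performed for BPTF, LSD1 and HP1γ at 0 and 30 min and for histone H2A at 0, 30 and 60 min. For every antibody and time there was 1 library, 9 samples in all, so no difference between times has a replicate check, no p-value is given, and every interval covers counting error over peaks or reads only.

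BPTF is the largest subunit of NURF, a remodelling complex that slides nucleosomes by means of the ISWI ATPase SMARCA1, and it reads histone marks through its PHD finger and bromodomain. LSD1 (KDM1A) is a histone lysine demethylase, and HP1γ (CBX3) binds methylated lysine 9 of histone H3 and is also found inside transcribed genes. H2A is a core histone, so its ChIP-seq signal follows nucleosomes along the genome. The progesterone receptor binds DNA as a dimer at inverted hexamers that end in TGTTCT, which the glucocorticoid and androgen receptors share.

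The sequences below are the central 200 bases of 5 members, chosen to show what the DNA of these regions looks like. EGFR and PDK4 were shown because the list of progestin response genes holds them, DGKG because its peak was on both an LSD1 and an HP1γ peak at 0 min, NPAS3 because its window held 4 different motifs, and ATL2 because its window held a palindromic receptor site. All are from GRCh37 (hg19), on the plus strand and 5′ to 3′, with capitals for matches to 8 short motifs on either strand.
EGFR, intron 1, chr7:55205283-55205482: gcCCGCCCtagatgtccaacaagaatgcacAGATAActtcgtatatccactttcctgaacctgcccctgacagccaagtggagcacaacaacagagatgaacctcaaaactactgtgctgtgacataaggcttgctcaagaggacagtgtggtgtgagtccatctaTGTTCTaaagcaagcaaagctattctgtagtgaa
PDK4, intron 6, chr7:95219932-95220131: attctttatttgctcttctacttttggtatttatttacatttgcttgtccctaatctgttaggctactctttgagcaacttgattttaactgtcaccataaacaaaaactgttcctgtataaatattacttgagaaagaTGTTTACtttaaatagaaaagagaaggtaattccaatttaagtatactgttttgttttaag
DGKG, intron 20, chr3:185945757-185945956: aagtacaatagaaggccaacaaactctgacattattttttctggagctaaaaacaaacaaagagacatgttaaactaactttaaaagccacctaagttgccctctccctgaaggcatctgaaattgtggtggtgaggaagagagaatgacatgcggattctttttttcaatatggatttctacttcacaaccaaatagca
NPAS3, intron 7, chr14:34220820-34221019: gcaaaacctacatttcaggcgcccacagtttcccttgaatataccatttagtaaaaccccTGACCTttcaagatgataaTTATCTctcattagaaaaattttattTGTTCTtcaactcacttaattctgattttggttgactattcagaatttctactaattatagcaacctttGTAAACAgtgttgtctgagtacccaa
ATL2, intron 4, chr2:38543265-38543464: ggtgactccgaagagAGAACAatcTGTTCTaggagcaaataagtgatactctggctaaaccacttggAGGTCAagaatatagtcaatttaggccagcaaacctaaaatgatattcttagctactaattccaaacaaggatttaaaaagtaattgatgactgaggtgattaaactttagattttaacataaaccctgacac

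These windows were mostly poor in G and C. The PDK4 window held 28.0% GC and 1 forkhead match, while the EGFR window held 46.5% GC with a receptor half-site, a GATA match and a GC box. The DGKG window held none of the 8 motifs. In ATL2, which encodes an endoplasmic reticulum GTPase, 2 half-sites stood as an inverted repeat 3 bases apart, and this was the only such repeat among the 2216 members (0.0451%, interval 0.00797 to 0.255%). Windows of the same length tiled along gene bodies, at least 5 kb from any start, held it in 193 of 5057400 (0.00382%).

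The members were AT-rich, and more so than gene bodies at large. The median GC content of their central 200 bases was 36.0% (quartiles 32.5 and 41.0%), against 40.5% for the tiles, which cover hosts and other genes alike. Set against its whole host gene, the window was lower in GC for 1474 members (66.5%), and the median difference over members was -2.52 percentage points. The whole gene includes the bases near its start that the rule leaves out. No such count was made for other windows of the hosts or for recruited peaks. Displaced peaks between genes had the same median of 36.0%, and those near starts had 38.5%. The BPTF peaks that the authors listed as recruited by hormone, placed in gene bodies by the same rule (728 of 1848), had a median of 44.5% (quartiles 39.0 and 50.5%), so their lower quartile lay above the median of the displaced members. Of the members, 41.0% were under 35% GC, compared with 27.1% of tiles and 8.52% of recruited gene-body peaks. CpG dinucleotides, the main target of DNA methylation, averaged 1.23 in a member window, 2.00 in a tile and 2.62 in a recruited window. Windows with at least 1 CpG were also counted at under 35, 35 to 40, 40 to 45 and 45% GC and over. They made up 52.5, 66.5, 74.6 and 89.9% of members and 51.6, 67.5, 77.9 and 91.7% of tiles. The tile share lay inside the member interval in each range. Recruited gene-body peaks stood at 64.5, 75.9, 74.9 and 90.0%.

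**Figure D1:**
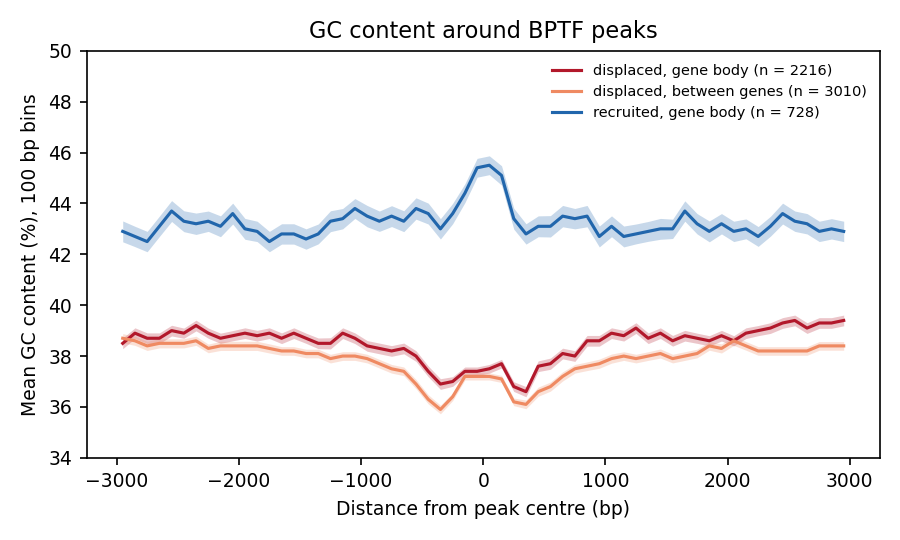
Mean GC content in bins of 100 bp against the distance from the peak centre, for displaced gene-body peaks, displaced peaks between genes and recruited gene-body peaks. Lines are means and bands are 1 standard error over peaks. Displaced members average 37.5% within 200 bp of the centre and 39.0% at 2 to 3 kb, while recruited peaks average 45.1% and 43.1%.

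The plot of GC content by distance shows that the low GC content was partly local. From the flanks at 2 to 3 kb to the central 200 bp on either side, mean GC content differed by -1.48 percentage points in members, by -1.23 in displaced peaks between genes and by 2.00 in recruited gene-body peaks. Displaced and recruited peaks therefore differed in opposite directions from their own surroundings at 2 to 3 kb. Closer in, both were higher at the centre. Members had 36.9% at -350 bp, 37.4% at -50 bp, 37.5% at 50 bp and 36.6% at 350 bp. Recruited gene-body peaks had 43.0, 45.4, 45.5 and 42.8% at the same distances. Most of the gap between the classes was already present at 2 to 3 kb, where members lay at 39.0% and recruited peaks at 43.1%.

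The forkhead site TGTTTAC is the core bound by FOXA1, a pioneer factor of luminal breast cells. It was found in 113 member windows (5.10%, interval 4.26 to 6.10%), in 3.12% of tiles and in 3.71% of recruited gene-body windows (interval 2.56 to 5.34%). Because this motif is itself AT-rich, the share was also taken within ranges of GC content. It was 6.17% against 4.64% of tiles under 35% GC, 5.26% against 3.86% at 35 to 40%, 4.80% against 2.91% at 40 to 45% and 1.95% against 1.57% at 45% and over. Members were above tiles in all 4 ranges. The member interval lay above the tile share under 35% GC (4.78 to 7.92%) and at 40 to 45% (3.02 to 7.56%), and held it in the other 2 ranges. In the same order, displaced peaks between genes stood at 5.06, 3.23, 4.48 and 3.37%, below tiles only at 35 to 40%. Recruited gene-body peaks stood at 1.61, 7.59, 4.09 and 2.29%, below tiles only under 35%. The excess over tiles was thus not particular to members.

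The receptor half-site TGTTCT was present in 401 member windows (18.1%, interval 16.5 to 19.8%), in 15.8% of tiles and in 22.1% of recruited gene-body windows (19.3 to 25.3%). Within the same 4 ranges of GC content it stood at 17.2, 20.9, 18.1 and 15.0% in members and 17.1, 18.6, 17.6 and 12.1% in tiles, with the tile share inside the member interval in each. The GATA site AGATAA, the core bound by GATA3, was present in 17.8% of member windows and 14.4% of tiles. From the most AT-rich range to the most GC-rich it stood at 20.6, 18.1, 18.6 and 8.14% in members and 22.7, 17.5, 13.7 and 6.15% in tiles, and the interval lay above the tile share only at 40 to 45% GC. AP-1 sites (TGANTCA, bound by FOS and JUN) were in 6.14% of members and 6.09% of tiles. The estrogen receptor half-site AGGTCA was in 11.1% and 13.0%, and the E-box CACGTG in 1.31% and 1.90%. The SP and KLF GC box GGGCGG was in 0.812% and 2.85%, and the ETS site CCGGAAG in 0.496% and 0.463%. Within the 4 GC ranges, the estrogen receptor half-site stood at 6.17, 11.9, 16.4 and 18.2% in members. Tiles stood at 6.47, 9.28, 12.9 and 20.6%, so members were above them in the 2 middle ranges. The E-box stood at 0.441, 1.39, 1.69 and 3.26% in members and 0.646, 1.22, 1.80 and 3.37% in tiles. The GC box stood at 0, 0.309, 0.565 and 4.56% against 0.145, 0.529, 1.48 and 7.13%, below tiles in each range. Over the 8 motifs, 1143 members (51.6%) held none, 835 held 1 kind and 5 held 4 kinds. All motifs were searched on both strands and could overlap one another, and a match is a description of the sequence only.

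Members were about as wide as recruited gene-body peaks, and the rule itself placed them away from gene starts. Their widths ran from 344 to 1665 bp with a median of 590 bp, close to the 589 bp of recruited gene-body peaks. The distance to the nearest gene start had a median of 63.5 kb (quartiles 25.5 and 153 kb) and reached 1320 kb. No such distance is given here for other gene-body positions or for recruited peaks, so these values are a description. At the edge of the rule, the members closest to a start lay 5001 bp (FAM214B), 5039 bp (ATP11A) and 5052 bp (KERA) away, and the peaks just left out lay 4857 bp (VCPKMT), 4837 bp (CFHR3) and 4817 bp (ZFPM2) away. Starts of the gene table only were used: when every annotated transcript start of GENCODE version 44 was avoided too, 1702 members (30.7% of displaced peaks) remained.

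Per Mb of full chromosome length, displaced peaks were denser in gene bodies than between genes. Gene bodies outside the 5 kb around starts made up 32.8% of chromosome length and held 2.18 displaced peaks per Mb, against 1.58 per Mb between genes and 1.77 near starts. Recruited peaks had another distribution, with 0.717 per Mb in gene bodies, 0.441 between genes and 1.56 near starts. Unsequenced gaps of the assembly, where no peak can be called, were not taken off these lengths. The densities between genes are therefore lower limits, and their distance from the other densities, or order against 1.77 near starts, is not settled. The share near starts was 5.75% of displaced peaks (interval 5.17 to 6.40%) and 15.2% of recruited peaks (13.6 to 16.9%), while the gene-body shares were close, at 40.0% and 39.4% (37.2 to 41.6%).

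Within genes, members were spread along the body. Counted from the start, the 5 equal stretches of the host gene held 16.2, 19.7, 21.6, 20.1 and 22.4% of members, and the same stretches held 15.9, 20.5, 21.1, 21.2 and 21.2% of the eligible length. By the peak centre, 1927 members (87.0%) lay in an intron of the canonical transcript, 54 (2.44%) in a coding exon, 51 (2.30%) in a UTR exon and 184 (8.30%) outside that transcript. Of the intronic members, 407 (21.1%) were in the first intron, which made up 20.8% of the eligible intron length. Along the gene and in first introns, members lay close to the length available to them.

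Exons held more members than their length. A member overlapped an exon of some transcript of its host in 356 cases (16.1%, interval 14.6 to 17.7%), whereas windows of the median member width would do so at 7.56% of eligible positions in the same genes. For the last exon of the canonical transcript the values were 64 members (2.89%) and 0.911% of positions. These last exons included that of CDK1, the kinase that drives entry into mitosis. The exon share of recruited gene-body peaks was 20.3% (17.6 to 23.4%) against 7.74% of positions, so the recruited list had such an excess too. Among the 1702 members away from all transcript starts, 163 (9.58%) overlapped an exon against 4.47% of positions, so both the share and its background were lower. The median GC content of the exon-overlapping members was 36.5%.

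The 2216 members lay in 1467 genes, which is 7.22% of the 20318 protein-coding genes of the table. Of these host genes, 1042 held 1 member, 243 held 2, 182 held at least 3 and 47 held at least 5. The 182 genes with at least 3 members held 761 of them. Members in overlapping genes counted for each gene, which affected 61 members. The median host was 131 kb long, against 21.9 kb for all genes, and its GC content was 39.4% against 45.4%.

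Part of the length difference followed from the space a long gene offers. The share of genes that hosted a member was 1.85% under 50 kb, 11.2% at 50 to 100 kb, 21.1% at 100 to 200 kb, 37.7% at 200 to 500 kb and 58.9% from 500 kb. Per Mb of eligible gene body the spread was narrow, at 1.79, 2.04, 2.17, 2.38 and 2.42 members in the same order. Recruited peaks had 0.818, 0.828, 0.796, 0.669 and 0.488 per Mb, so long genes held relatively more displaced and fewer recruited peaks.

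**Figure D2:**
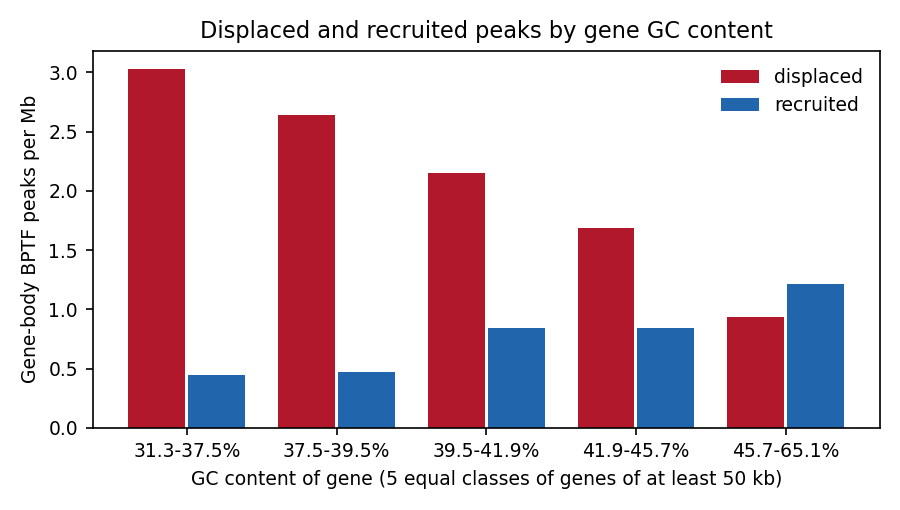
Displaced and recruited BPTF peaks per Mb of eligible gene body in 5 equal classes of the genes of at least 50 kb, by GC content of the gene. Displaced peaks go from 3.03 per Mb in the most AT-rich class to 0.932 in the most GC-rich, and recruited peaks from 0.446 to 1.21.

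Base composition of the gene separated the lists more than length did. Among genes of at least 50 kb, ordered into 5 equal classes by GC content, members had 3.03, 2.64, 2.15, 1.69 and 0.932 per Mb from the most AT-rich to the most GC-rich class. Recruited gene-body peaks had 0.446, 0.473, 0.841, 0.844 and 1.21 per Mb over the same genes. In the most AT-rich class 735 members and 108 recruited peaks were found, and in the most GC-rich class 113 and 147. The depth and GC content of the BPTF reads at each time are unknown, and their part in this contrast was not tested.

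Members were also very unequally spread over chromosomes. Chromosome 3 held 332 members (4.32 per Mb of eligible gene body), chromosome 8 held 208 (4.25 per Mb) and chromosome 12 held 197 (3.88 per Mb), whereas chromosome 2 held 38 (0.457 per Mb), chromosome 4 held 34 (0.585 per Mb) and chromosome X held 4 (0.0967 per Mb). The 6 chromosomes with most members held 1295 (58.4%) on 37.1% of the eligible length. The density of members followed that of the other lists in gene bodies: over the 23 chromosomes with a member, Spearman's coefficient was 0.972 with LSD1 peaks at 0 min, 0.943 with HP1γ peaks at 0 min, 0.957 with displaced peaks between genes and 0.785 with recruited gene-body peaks. These coefficients are descriptions of 23 points that come from 1 cell line and share its chromosomes. The H2A level moved with it as well: the median RPKM per annotated transcript at 0 min, over genes of at least 50 kb, was 0.411 on chromosome 3, 0.451 on chromosome 8 and 0.462 on chromosome 12, against 0.255 on chromosome 2, 0.244 on chromosome 4 and 0.148 on chromosome X (Spearman's coefficient with member density 0.683). The labels name no input library and none was used here, so the number of copies of a chromosome or region in this line and the binding on it cannot be told apart, which touches each density and overlap given here.

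The gene with most members was NLGN1, which encodes neuroligin 1, a postsynaptic adhesion protein. It spans 888 kb of chromosome 3 (173116238 to 174004434, plus strand) and held 23 displaced peaks and 1 recruited peak. All 23 lay in introns, with 8 in intron 1, 6 in intron 3 and 9 in intron 4, between 36.4 and 871 kb from the start. NLGN1 held 26.0 members per Mb, while the rest of the eligible gene bodies of chromosome 3 held 4.07. The other lists were dense there too, with 135 LSD1 peaks per Mb at 0 min against 30.6 in the rest and 97.4 HP1γ peaks per Mb against 23.8. H2A at 0 min, as RPKM per annotated transcript, was 0.819 in NLGN1 against a median of 0.411 for genes of at least 50 kb on the chromosome. NLGN1 was picked for its members, so these values are a description. Of its 23 members, 3 were on an LSD1 peak at 0 min and none at 30 min, 5 were on an HP1γ peak at 0 min and another 2 at 30 min.

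**Figure D3:**
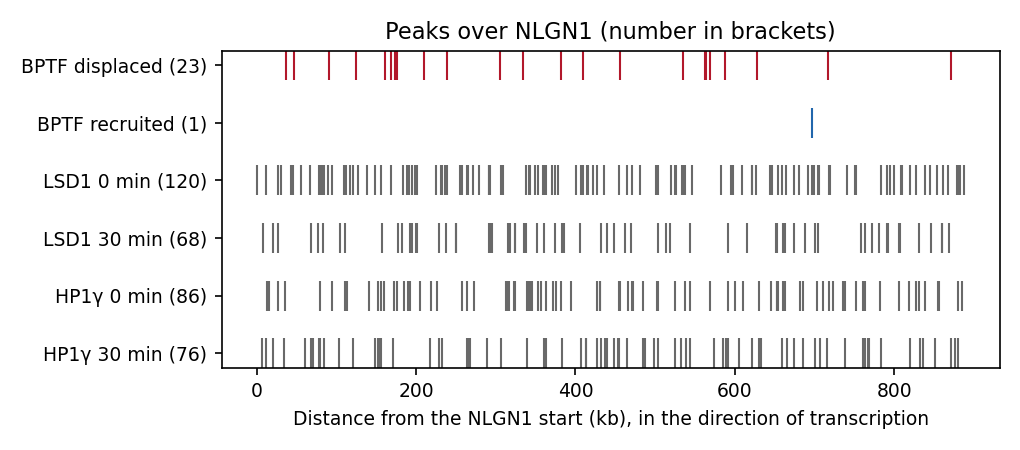
Centres of the displaced and recruited BPTF peaks, and of the LSD1 and HP1γ peaks at 0 and 30 min, along NLGN1, as distance from its start in kb. Each tick is 1 peak and the number of peaks is in brackets; 23 displaced peaks stand beside 1 recruited peak, and 120 LSD1 peaks at 0 min beside 68 at 30 min.

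The NLGN1 map shows members along most of the gene, with 4 of them between 160 and 176 kb from the start. Next in number were CADM2 (12 members, a synaptic cell adhesion molecule), VPS13B (11, a lipid transfer protein of the Golgi), PDE4D (10, a cyclic AMP phosphodiesterase) and EYS (10, a photoreceptor matrix protein). CTNNA3, KCNMB2, LRRC4C, NAALADL2 and TENM2 held 9 each, and LPP and IQCJ-SCHIP1 held 8 each. Their H2A per annotated transcript at 0 min lay on both sides of the median of their chromosome. It was above in KCNMB2 (0.903 against 0.411), NAALADL2, LPP, PDE4D, TENM2 and EYS. It was below in VPS13B (0.232 against 0.451), CTNNA3 (0.160 against 0.335), CADM2 and LRRC4C, and was not computed for IQCJ-SCHIP1. NAALADL2, which follows NLGN1 on the chromosome at 174158777 to 174455536, held 30.8 members per Mb of eligible gene body. EYS, the least dense of the 12, held 5.05. By the peak centre, every member in NAALADL2 lay outside its canonical transcript, as did some in KCNMB2 and IQCJ-SCHIP1. The densities that follow are per Mb of the whole gene. Among genes of at least 50 kb, TRIQK (49.5 members per Mb from 4 members), ARFGEF1 (42.6 from 4), TSC22D2 (38.6 from 2), FXR1 (37.3 from 3), JPH1 (35.7 from 3) and LMO3 (35.1 from 2) had most for their length, each from few peaks.

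A list of very long genes, mostly of neural adhesion and synapses, held 24 hosts among its 34 genes, with 101 members. Their density was 2.46 per Mb, close to the 2.42 per Mb of all genes from 500 kb. Many of these genes are known for roles in the brain, and the data here do not measure their expression.

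Genes of the hormone response held members at about the rate of all genes. Of 45 progestin response genes 3 were hosts (6.67%, against 7.22% of all genes): EGFR, the receptor for epidermal growth factor, NCOA3, a coactivator of steroid receptors, and PDK4, a kinase that inhibits pyruvate dehydrogenase. Each held 1 member, at 118 kb from the start in intron 1 of EGFR, at 126 kb in a coding exon of NCOA3 and at 5.54 kb in intron 6 of PDK4. None of the 3 was on an LSD1 or HP1γ peak. The list had a median gene length of 16.4 kb and 1.63 members per Mb, from 3 members, against 2.18 per Mb over all gene bodies. Of 24 estrogen response genes, THSD4, a secreted matrix protein, was the only host (4.17%), with 4 intronic members between 110 and 465 kb from the nearest gene start, which gave the list 2.25 members per Mb.

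Luminal identity genes had 5 hosts among 26 (19.2%, against 7.22% of all genes), with 10 members on 1.46 Mb of eligible gene body (6.84 per Mb, against 2.18 over all gene bodies); 5 of the 10 were in TRPS1 on chromosome 8, which as a whole had 4.25 per Mb. GATA3, the transcription factor that specifies luminal cells, held 2 members in its 20.1 kb, in intron 3 (6.98 kb from the start, 53.0% GC) and intron 5 (17.5 kb, 43.0% GC). Both were richer in GC than the median member. TRPS1, a repressor of the GATA family, held 5 members in introns 1 and 5, between 8.81 and 235 kb from the start, with 30.5 to 38.5% GC. AGR2, CLDN4 and GRHL2 held 1 each, and the one in GRHL2 was on an LSD1 peak at 0 min. Of 20 basal and mesenchymal genes, with a median length of 51.5 kb, 4 were hosts, with 3 members in TP63 and 1 each in ACTA2, CDH2 and EGFR.

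Among 42 chromatin remodelling genes 3 were hosts (7.14%, median length 55.5 kb). BPTF itself held 2 members, CHD6 held 2 and CHD1 held 1. In BPTF, 1 lay in intron 1 at 13.4 kb from the start with 27.5% GC, and the other in the UTR exon at the far end of the gene, on an LSD1 peak at 0 min. Of 33 genes of receptor kinase signalling 7 were hosts (21.2%, with a median length of 87.6 kb and 1.81 members per Mb), among them GHR, the growth hormone receptor (2 members), KIT (1) and PIK3R1 (1). Of 27 genes of poly-ADP-ribose and NAD metabolism NMNAT2, NMNAT3 and SIRT1 held 1 member each (11.1%, 1.60 per Mb). PTPRC held 2 and CD3E held 1 among 16 genes that mark immune cells (12.5%), and these 3 members on 0.285 Mb gave 10.5 per Mb, above the luminal list. The lists differ in length and base composition and rest on few members, and no list was tested against another.

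**Figure D4:**
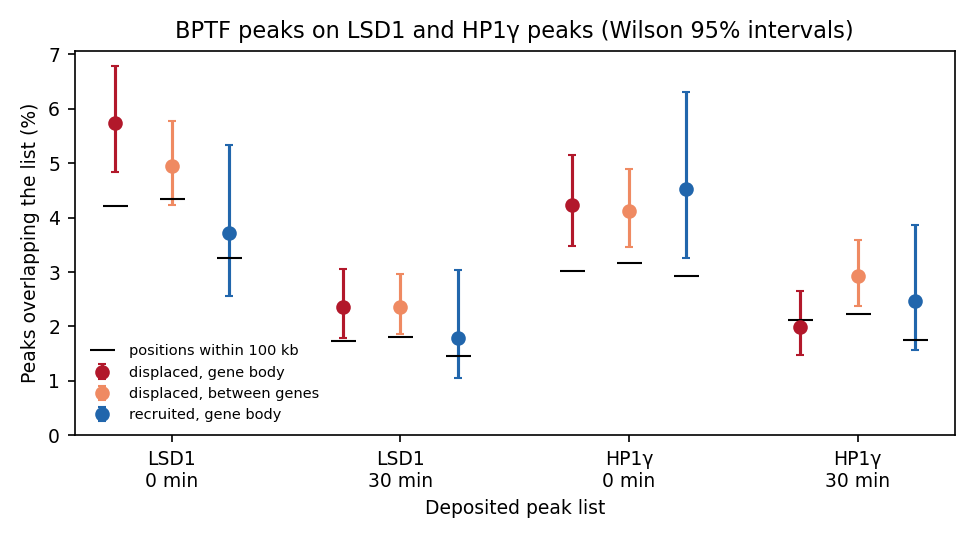
Share of BPTF peaks that overlap a peak of each deposited list, with Wilson 95% intervals, for displaced gene-body, displaced intergenic and recruited gene-body peaks. Black bars give the mean share of positions within 100 kb of each peak where a window of the median member width would overlap the list; at 0 min 5.73% of displaced members are on LSD1 against 4.22% of nearby positions.

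Most members were on neither an LSD1 nor an HP1γ peak: 1940 of 2216 overlapped no peak of the 4 lists, and 276 overlapped at least 1. At 0 min, 127 members (5.73%, interval 4.84 to 6.78%) overlapped an LSD1 peak and 94 (4.24%, 3.48 to 5.16%) an HP1γ peak. At 30 min the counts were 52 (2.35%, 1.79 to 3.06%) and 44 (1.99%, 1.48 to 2.65%). The lists at 30 min were shorter (20495 against 34990 LSD1 peaks and 23836 against 31845 HP1γ peaks) and came from libraries of unknown depth, so counts at the 2 times are set side by side without a comparison.

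A window of the median member width would overlap an LSD1 peak of 0 min at 1.57% of all eligible gene-body positions, and at 2.28% when chromosomes are weighted as the members are. Within 100 kb of each member the share of positions was 4.22%, and the member share of 5.73% was 1.36 times that. The corresponding local shares were 1.73% for LSD1 at 30 min, 3.02% for HP1γ at 0 min and 2.11% for HP1γ at 30 min. Members were above their surroundings for LSD1 at both times and for HP1γ at 0 min, with intervals that lay above the local share, and for HP1γ at 30 min (1.99%) the interval held it. Most of the excess over gene bodies at large was thus shared by the neighbourhood of the members.

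The other classes of BPTF peak gave shares near those of the members. For LSD1 at 0 min, 4.95% (4.23 to 5.78%) of displaced peaks between genes and 3.71% (2.56 to 5.34%) of recruited gene-body peaks overlapped. For HP1γ at 0 min the shares were 4.12% and 4.53%, on either side of the 4.24% of members. The intervals of these shares overlapped between the 3 classes in all 4 lists, and the differences between classes were not tested. An excess over the positions within 100 kb was not particular to members. For LSD1 at 0 and 30 min, then HP1γ at 0 and 30 min, the ratios in members were 1.36, 1.36, 1.41 and 0.942. They were 1.14, 1.31, 1.30 and 1.31 in displaced peaks between genes, and 1.14, 1.23, 1.55 and 1.42 in recruited gene-body peaks. The authors' scores of LSD1 peaks at 0 min had a median of 39.6 where they met members and 36.4 over all LSD1 peaks in eligible gene bodies, with 71 of 127 above the latter. In the other lists the medians lay closer, at 36.0 and 36.0 for LSD1 at 30 min, 35.9 and 35.5 for HP1γ at 0 min and 39.4 and 37.4 for HP1γ at 30 min.

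Both proteins met at few members: 14 overlapped LSD1 and HP1γ peaks at 0 min. By the LSD1 score these were led by members in ATP13A5 (LSD1 score 59.7, HP1γ score 48.7), PLAG1 (58.7 and 51.6), ENSG00000121848 (56.1 and 45.4), DGKG (54.9 and 51.3), GXYLT1 (49.3 and 31.6) and TSHZ2 (48.2 and 59.7). ATP13A5 encodes a P5-type ATPase, DGKG a diacylglycerol kinase, and PLAG1 and TSHZ2 encode zinc finger proteins. Of the 6, only the member in ENSG00000121848 also overlapped an HP1γ peak at 30 min, and none overlapped LSD1 then. The DGKG window printed above, at 37.0% GC, was one of these sites.

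A small set stayed under the same protein at both times: 6 members overlapped LSD1 peaks at 0 and 30 min, and 9 overlapped HP1γ peaks at both. The highest LSD1 score was at the member in intron 2 of FGF12, an intracellular factor of the fibroblast growth factor family, with 88.4 at 0 min and 41.5 at 30 min. The member in intron 4 of DNAJB11, a chaperone cofactor of the endoplasmic reticulum, had 49.6 and 66.6. The others with LSD1 were in ECT2, TSC22D2, BMPR1A and GPBP1, and those with HP1γ included LPP, RSRC1, EIF5A2, KCNMB2 and PTPN3. Of all 15, 8 lay on chromosome 3, which held 15.0% of all members. In gene bodies, that chromosome was also the densest in LSD1 and HP1γ peaks at both times.

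Few members had a recruited peak nearby, as did few gene-body positions. The nearest recruited BPTF peak of any place was a median of 313 kb from a member, and 54 members (2.44%) had one within 10 kb, against 1.46% of eligible gene-body positions and 1.82% with chromosomes weighted as the members are. The shortest distance between centres was 949 bp, in ARL15, followed by 1051 bp in MCCC1 and 1188 bp in RAD21, the cohesin subunit. Another member lay at a median of 114 kb, and 194 members (8.75%) had one within 10 kb. No share of positions was computed for that count, and the displaced list is the longer one. It is therefore neither a measure of clustering nor comparable with the 2.44%. Of the host genes 223 also held a recruited gene-body peak, which is 15.2% of the 1467 displaced hosts and 33.9% of the 658 recruited hosts. Over all genes, 3.24% held a recruited and 7.22% a displaced gene-body peak, and hosts of both were long, with a median of 289 kb. LPP, an adhesion protein of the zyxin family, held 8 displaced and 3 recruited peaks, and PDE4D held 10 and 2.

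H2A was measured over whole genes, as RPKM (reads normalised for gene length and library size), and so describes the host and not the peak. The values moved in steps of 1 read, which gave depths of 141, 168 and 133 M reads at 0, 30 and 60 min, and no host had fewer than 190 reads per annotated transcript in a library. Changes are log2 ratios of RPKM plus a pseudocount of 0.05, over 19709 genes with a mean of at least 0.1 RPKM. The 30 and 60 min values share the same 0 min library.

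At 30 min the median change was 0.04 over the 1467 hosts and -0.14 over all genes, and H2A was higher in 870 hosts and lower in 596. At 60 min the medians were 0.03 and -0.03, with 974 hosts higher and 488 lower. Hosts with at least 3 members stood at 0.13 and 0.05. Hosts of recruited gene-body peaks stood at -0.07 and 0.00. Large changes were rare: past 0.5 at 30 min there were 3 hosts higher and 0 lower, against 0.345% of all genes higher and 1.99% lower. At 60 min no host passed 0.5 either way, against 0.249% and 0.639% of all genes. Long genes without a member had few large changes too. Of 4611 such genes of at least 50 kb, 2 were higher and 0 lower past 0.5 at 30 min. At 60 min 1 was higher and 0 lower, so the lack of large falls was not particular to hosts.

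**Figure D5:**
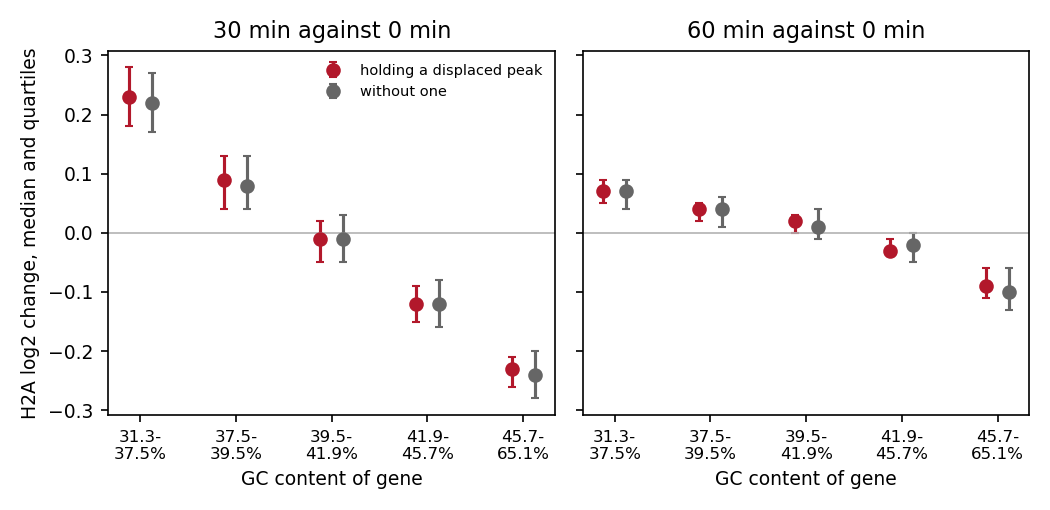
Log2 change of H2A RPKM at 30 and 60 min against 0 min in genes of at least 50 kb, in 5 classes of gene GC content, for genes that hold a displaced gene-body peak and those that hold none. Points are medians over genes and bars are quartiles; in the most AT-rich class the medians at 30 min are 0.23 and 0.22, and in the most GC-rich -0.23 and -0.24.

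The H2A change followed the GC content of the gene, and the plot by classes of GC content shows hosts and other genes together. At 30 min the host medians were 0.23, 0.09, -0.01, -0.12 and -0.23 from the most AT-rich to the most GC-rich class, and those of genes without a member were 0.22, 0.08, -0.01, -0.12 and -0.24. At 60 min the first and last classes stood at 0.07 and -0.09 in hosts and 0.07 and -0.10 in the others. With the GC trend taken off over all genes, the host medians were -0.01 at 30 min and 0.00 at 60 min. So within genes of like base composition, the H2A change of hosts lay within 0.01 of that of other genes at all 5 levels at 30 min.

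The 3 hosts past 0.5 at 30 min were IAPP, the islet amyloid peptide, with 1.54, 2.32 and 1.73 RPKM at 0, 30 and 60 min (log2 change 0.58 at 30 min), SI, sucrase-isomaltase, with 1.08, 1.62 and 1.26 RPKM (0.56), and NOVA1, a neuronal splicing factor, with 3.27, 4.74 and 3.57 RPKM (0.53). All 3 genes had 35.4% GC or less. With the GC trend taken off, their changes at 30 min were 0.31, 0.04 and 0.12. NLGN1 had 9.01, 10.7 and 9.53 RPKM (0.25 at 30 min, -0.02 with the trend off).

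The hosts of the hormone and luminal lists gave small values. EGFR had 7.44, 6.64 and 7.21 RPKM at 0, 30 and 60 min (log2 change -0.16 at 30 min), NCOA3 had 2.42, 2.46 and 2.46 RPKM (0.02) and PDK4 had 1.25, 1.45 and 1.23 RPKM (0.20, with a counting standard error of 0.09). GATA3 had 3.14, 2.74 and 2.94 RPKM (-0.19) and TRPS1 had 5.80, 6.81 and 6.06 RPKM (0.23). CLDN4 had -0.23, AGR2 0.01, GRHL2 -0.04 and THSD4 -0.11 at 30 min. With the GC trend taken off, the 9 hosts of these lists were between -0.10 (AGR2) and 0.05 (NCOA3). BPTF itself stayed at 8.82, 8.89 and 8.93 RPKM.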

How the data were processed

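ChIP-seq of BPTF, LSD1, HP1γ and H2A came from 9 samples, grouped by antibody and time from the titles. The tools were Bowtie 1.0.0 and HOMER 4.7.2 and the genome hg19 (GRCh37), per the submitters' processing notes. The H2A values were deposited as RPKM per protein-coding gene of GENCODE version 18, counted on both strands with HOMER, per the file headers. RPKM followed the number of transcripts of a gene, so undivided RPKM was compared within genes only. Levels set between genes or chromosomes were first divided by a transcript count for each gene. The annotation used here was GENCODE version 44, so a count may differ from the one behind the deposited RPKM. The effect of such a difference on these levels was not tested. The LSD1 and HP1γ lists were deposited with a score for each peak, none under 30. The displaced and recruited BPTF lists were deposited as positions. The caller, its control, the meaning of the score and the criterion of change are not given in the sources used here. Columns of other samples numbered 0.

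Overlap was at least 1 bp, and intervals are Wilson 95% intervals. GC content, motifs and exons came from GRCh37 and GENCODE version 44 lifted to it; 1450 hosts (98.8%) matched by identifier. A planned share of soft-masked bases was not computed because the sequence used is all in capitals. Steps in RPKM gave whole reads within 0.1 reads for 97.3, 97.8 and 97.6% of 369, 325 and 425 low values. The GC trend was a lowess curve (fraction 0.3). Scripts ran in Python 3.11.15 with numpy 2.4.6, pandas 2.3.3, scipy 1.17.1, statsmodels 0.14.6 and pysam 0.24.0, and were tested on simulated data.

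Members, 9 gene lists and 9 motifs were chosen with earlier results of these data known. Named genes are the 12 with most members, the 6 of at least 50 kb with most per kb, hosts in the progestin, estrogen and luminal lists, up to 4 hosts of each other list, up to 6 hosts on both LSD1 and HP1γ, hosts past 0.5 in H2A, and the 6 hosts of both kinds with most peaks. CDK1, ATL2, the genes nearest a recruited peak, those at the edge of the rule and the members under 1 protein at both times were picked after their values were seen. A gene that the rule names is not reported here. Alternatives are given in the closing section.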

Additional observations from a re-analysis of the deposited data

How the results depend on the processing

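No paired analysis was possible because each antibody and time had 1 library. Members were 42.6% of displaced peaks with 1 kb around starts, 36.9% with 10 kb and 30.7% with all transcript starts, and 39.9% by the peak centre. With LSD1 and HP1γ peaks of a score of at least 50, the overlap of members was 1.31% (LSD1, 0 min), 0.271% (LSD1, 30 min), 0.632% (HP1γ, 0 min) and 0.406% (HP1γ, 30 min). With the member centre inside the peak it was 3.52, 1.22, 1.90 and 0.857%, and with peaks within 1 kb it was 12.8, 5.91, 8.08 and 6.68%. Without chromosome 3, LSD1 overlaps were 4.51% and 1.70%, and those of HP1γ stayed within their intervals. The H2A median over hosts was 0.19 at 30 min and 0.06 at 60 min when centred on all genes, -0.01 (turned in sign) and 0.00 with the GC trend off, and 0.10 and 0.04 in hosts with at least 2 members, and other pseudocounts and filters left it within 0.01. In windows of 100 and 400 bp, the forkhead share was 3.11 and 9.16%, GATA 8.80 and 33.3%, and the receptor half-site 9.61 and 33.0%, as longer windows hold more matches. The share on exons was 9.58% away from all transcript starts. Member rules in the overlap and exon results, GC ranges for motifs, the inverted repeat, the 100 kb surroundings and the H2A level by chromosome were alternatives chosen after seeing the data. The depth of the BPTF, LSD1 and HP1γ libraries is unknown.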
